A study of Zea mays with 6 samples.

Results

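Leaves of B73 maize (Zea mays) seedlings that had gone through a first dehydration stress (S1) were compared with those of seedlings that had not been dried (W). RNA-seq libraries were available for 3 conditions, and 4 of the 6 libraries belong to this comparison, 2 biological replicates of W and 2 of S1, chosen by their treatment labels. The 2 libraries of seedlings dehydrated 3 times (S3) entered the filter that chose the tested genes and the estimate of the spread between replicates. They did not enter the difference between S1 and W. Plants of all groups were raised in soil at 22 °C under 12 h of light, in growth rooms according to the labels and in a greenhouse according to the methods of the study. Before the treatment the seedlings were lifted from the soil and left overnight with their roots in water, and S1 seedlings then dried in air for 2 h the next morning. Each treatment drew on several plants, and no mutant or transgene was involved. The hour at which the W leaves were taken is not given in the sources used here, so the effects of drying and of a later hour of the day cannot be told apart. Levels are FPKM, fragments per kilobase of transcript scaled to the mapped total, and 20130 of the 39634 listed genes had at least 1 FPKM in at least 2 of the 6 libraries and were tested.

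A leaf that loses water makes the hormone abscisic acid (ABA), which closes the stomata and switches on genes for protective proteins. ABA is cut from carotenoid precursors by 9-cis-epoxycarotenoid dioxygenases. It is bound by receptors that then block type 2C protein phosphatases (PP2C), which frees SnRK2 kinases to activate bZIP transcription factors. Factors of the DREB type act beside this route. Their targets include dehydrins and other late embryogenesis abundant (LEA) proteins, enzymes of protective sugars, and water channels.

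The libraries were close in composition, with the exceptions given here. Summed FPKM, which do not measure library size, were 672411 and 568731 in the W replicates 1 and 2. They were 611980 and 653651 in the S1 replicates 1 and 2. The 10 most abundant genes of each library held 10.9% and 9.32% of its summed FPKM in W. In S1 they held 7.33% and 7.39%. The median absolute difference between replicates was 0.166 log2 units in W and 0.197 in S1, on the log2(FPKM + 1) scale. Log2 fold changes are on that scale throughout, and a fold is the ratio of the group means in FPKM. The summed FPKM of the 50 listed photosystem and chlorophyll-binding genes was 72881 in W replicate 1 and 44852 in W replicate 2, against 48554 and 49915 in S1, so W replicate 1 stood above the other 3 libraries for these genes. The leaf label was checked against C4 enzymes, and both cell types of a C4 leaf were represented. Phosphoenolpyruvate carboxylase 1 (GRMZM2G083841), which fixes carbon in mesophyll cells, was at 1533 and 941 FPKM in W and 1238 and 1343 in S1. Chloroplastic NADP-dependent malic enzyme (GRMZM2G085019), which releases it again in the bundle sheath, was at 2028 and 1505 in W and 1907 and 2113 in S1, and both genes were picked after their values were seen. A further C4 gene, described as a truncated cytosolic orthophosphate dikinase (GRMZM2G306345), was at 11253 and 8819 FPKM in W. It was listed at 0 in both S1 libraries and is described below. Markers of other tissues stayed few. Of 30 listed genes for seed storage proteins 2 passed the filter, of 29 for pollen and flower 9 and of 12 for root 2, and the only calls among them were 2 pollen and flower genes that rose: tassel seed1 (GRMZM2G104843), in maize a lipoxygenase of jasmonate synthesis, from 3.05 and 3.02 to 11.1 and 7.68, and pollen-specific arabinogalactan protein BAN102 (GRMZM2G309847), from 0.129 and 0.151 to 3.15 and 2.08.

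After the first dehydration, genes rose more often than they fell. With limma at an adjusted p of at most 0.05 and an absolute log2 fold change no smaller than 1, 1820 of 20130 genes (9.04%) differed, 1511 higher in S1 (7.51%) and 309 lower (1.54%). In the called genes the 2 W and the 2 S1 libraries never overlapped. The calls were made on these same libraries, so nothing is read from that. Of all genes tested, 31.6% had both S1 libraries above both W libraries and 31.7% had both below. A rise of more than 3 log2 units was found for 181 genes and a fall of that size for 4. The genes that rose had a median of 3.03 FPKM in W and 15.8 in S1, and those that fell a median of 9.78 in W and 3.35 in S1. A gene below 1 FPKM in both W libraries can be called higher but never lower on this scale, and it needed other libraries to pass the filter, so these levels describe the calls and nothing is read from their difference. Over all genes tested the median log2 fold change was -0.01, with quartiles of -0.28 and 0.31. Leaving out W replicate 1 lowered the number of falling genes to 144 and leaving out S1 replicate 2 lowered it to 193, while the rises stayed between 1098 and 1326. In whole leaves, fewer cells of a type and less RNA per cell cannot be told apart. The plot of change against level shows where the called genes lie.

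**Figure D1:**
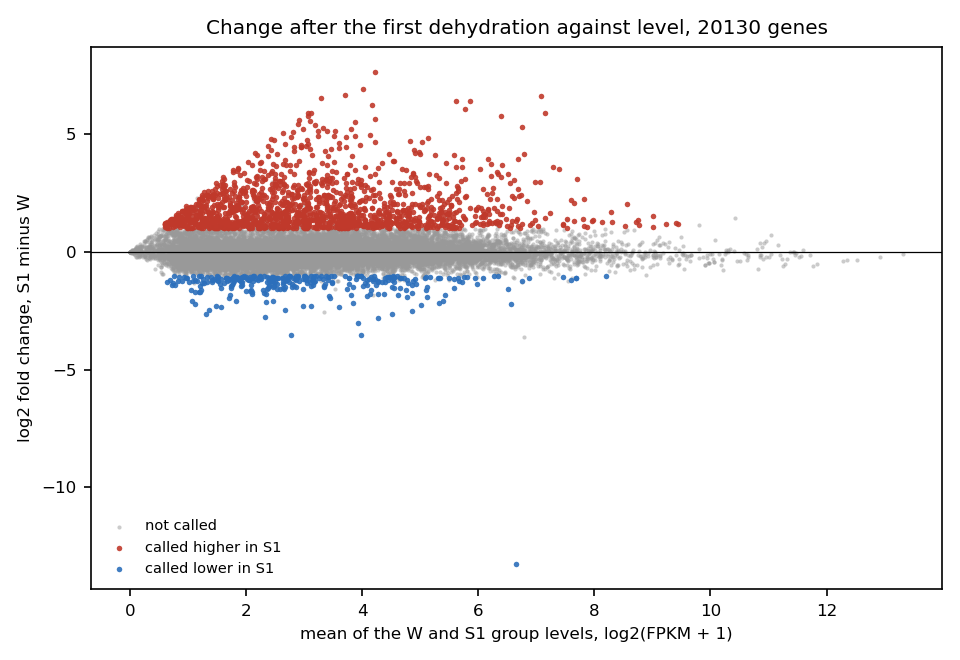
Log2 fold change of S1 over W for each of 20130 genes against the mean of the group levels on the log2(FPKM + 1) scale. Red points are the 1511 genes called higher and blue points the 309 called lower, and the single point near -13 is a gene listed at 0 FPKM in both S1 libraries.

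Function was read from the deposited descriptions. Of the genes tested, 3993 have a description that names a function, and 402 of these rose (10.1%) while 52 fell (1.3%). Of 6059 genes with no description 6.72% rose and 2.03% fell. The members were sorted into 71 lists by words in the descriptions, and the plot of list members shows those described here. Dehydrins, sugars of the raffinose family, ABA synthesis, AP2/ERF factors, water channels and jasmonate genes had medians well above the -0.01 of all genes, and histones had the lowest median.

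**Figure D2:**
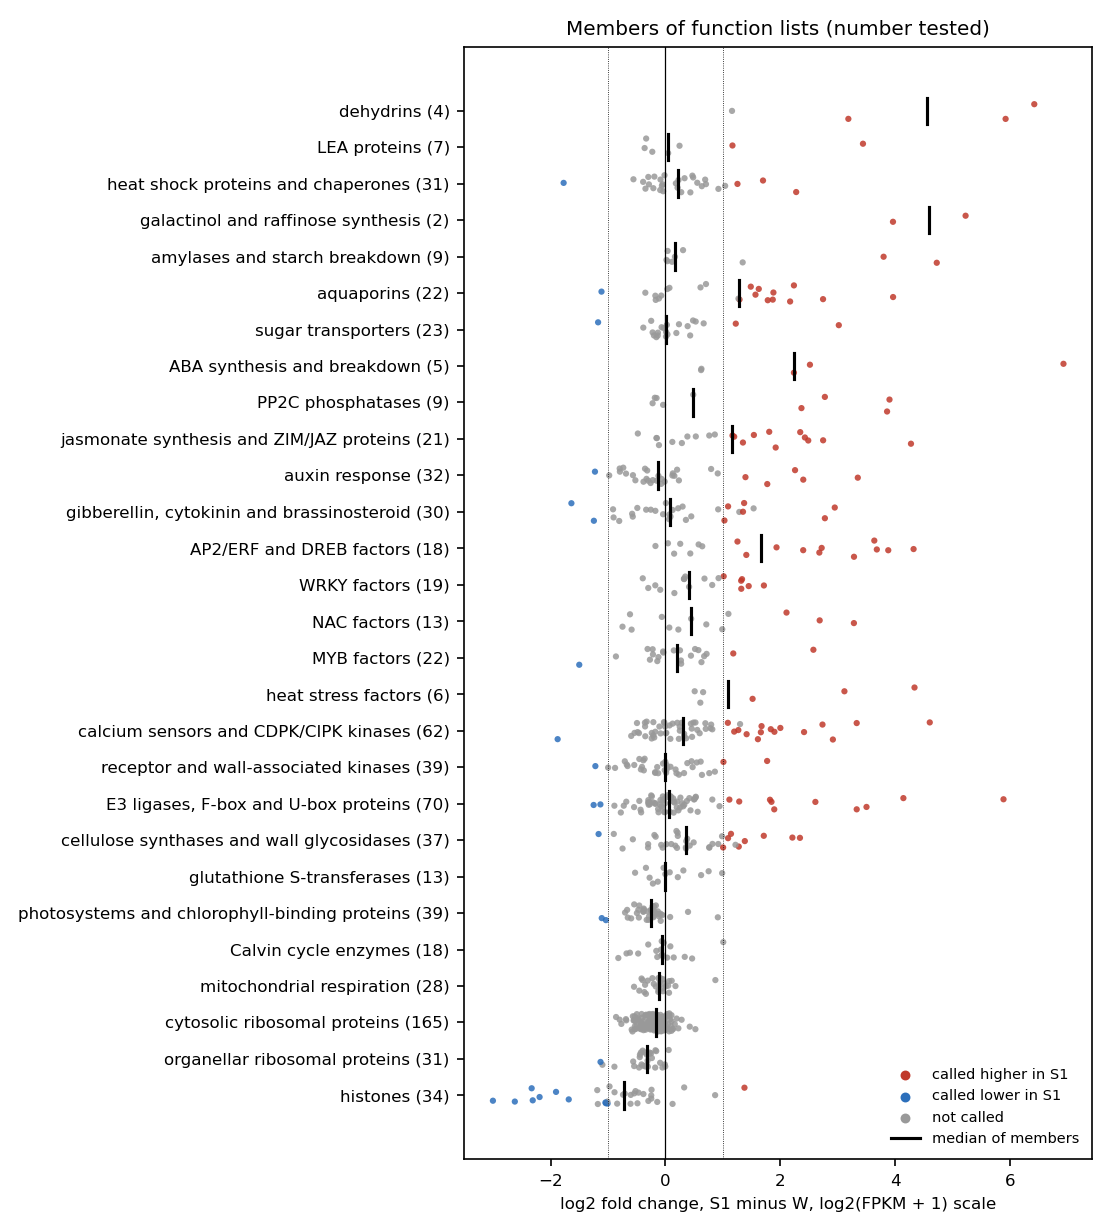
Log2 fold change of S1 over W for the tested members of 28 function lists, 1 point per gene, with the number tested in brackets and dotted lines at a 2-fold change. Dehydrins and galactinol and raffinose enzymes have medians of 4.56 and 4.597, AP2/ERF factors 1.67, cytosolic ribosomal proteins -0.16 and histones -0.72.

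Genes that make ABA rose. Of 5 tested genes in the list for ABA synthesis and breakdown 3 rose and none fell, with a median log2 fold change of 2.24. None of the 5 is described as a breakdown enzyme, so the list covers synthesis only and ABA breakdown is not described here. The largest rise among genes with a named function was that of 9-cis-epoxycarotenoid dioxygenase 1 (GRMZM2G014392), which was at 0.519 and 0.391 FPKM in W and 208 and 150 in S1. Both S1 libraries lay far above both W libraries, and the log2 fold change was 6.93 ± 0.19 (SE, n = 2 per group, limma adjusted p = 5.43e-06). The other members that rose were 2 genes described as viviparous-14, the maize name of a 9-cis-epoxycarotenoid dioxygenase. GRMZM5G858784 went from 0.268 in both W libraries to 6.996 and 5.60. GRMZM2G417954, picked after its values were seen, was listed at 0 in both W libraries and at 6.36 and 2.03 in S1. The 2 other members, a zeaxanthin epoxidase and an aldehyde oxidase, had log2 fold changes of 0.63 and 0.62 and were not called.

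In the list for chlorophyll, haem and carotenoid synthesis 2 of 15 members rose and none fell, and both were beta-carotene hydroxylases, which make the zeaxanthin from which ABA precursors are formed. GRMZM2G382534 was at 0.0362 and 0.0476 FPKM in W and 72.98 and 33.2 in S1, a log2 fold change of 5.59 ± 0.32 (SE, adjusted p = 6.67e-05). GRMZM2G152135 was at 3.18 and 3.79 in W and 17.0 and 13.5 in S1. The median of the list was -0.02, close to that of all genes.

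The phosphatases and kinases of ABA signalling changed in part. Of 9 tested genes described as PP2C, 4 rose and none fell, with a median of 0.49. GRMZM2G082487 went from 0.740 and 0.519 FPKM to 29.6 and 18.4, and GRMZM2G059453 from 7.23 and 3.34 to 92.3 and 80.0. The gene of these 9 with the highest mean over the 4 libraries, GRMZM2G003096, lay at 111 and 82.6 in W and at 77.6 and 86.6 in S1, with overlapping groups (adjusted p = 0.583). Of 10 PP2C genes that the study picked on these samples, 9 were called higher, which is not independent evidence of their direction. The largest change was in GRMZM2G010855, a gene with no function in its description, from 0.443 and 0.127 to 124 and 138 (log2 fold change 6.69 ± 0.17, SE). The kinase SnRK2.2 (GRMZM2G056732) went from 20.3 and 24.1 to 97.6 and 86.7, a 4.15-fold rise (adjusted p = 2.86e-04). It belongs to a list of 14 tested MAP and SnRK kinase genes, with a median of 0.24. Of these 3 rose (21.4%, against 7.51% of all genes) and none fell, and the most abundant was not called. Of 5 bZIP factors 3 rose, among them bZIP transcription factor1 (GRMZM2G117851), from 1.29 and 1.30 to 7.76 and 8.60.

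Dehydrins, hydrophilic proteins that coat membranes and other proteins in drying cells, rose most among the protective proteins. Of 4 tested members 3 rose, and all 4 had both S1 libraries above both W libraries, as did 31.6% of all genes. Dehydrin COR410 (GRMZM2G147014) went from 3.56 and 4.84 FPKM to 611 and 321, a 111-fold rise (log2 fold change 6.43 ± 0.38, SE, adjusted p = 7.20e-05). A further dehydrin (GRMZM2G373522) went from 11.7 and 22.8 to 1473 and 756. DHN1, also called RAB-17 (GRMZM2G079440), went from 0.674 and 0.434 to 19.7 and 8.61. Dehydrin 13 (GRMZM2G169372) was already abundant in W, at 713 and 482, and lay at 1486 and 1159 in S1 without passing the threshold (adjusted p = 0.057, and 0.038 in a fit of the 4 W and S1 libraries only). The summed dehydrin level went from 729 and 510 to 3590 and 2245.

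Of 7 tested genes for other LEA proteins 2 rose, and the median was 0.05. The seed maturation protein PM41 (GRMZM2G457346), known from drying seeds, went from 0.757 and 1.39 FPKM to 20.1 and 22.5, whereas the most abundant member (GRMZM2G072890) lay at 147 and 77.2 in W and 118 and 103 in S1. Of 12 ASR, HVA22 and similar water-deficit genes 3 rose, led by hydrophobic protein LTI6A (GRMZM2G477325), a small membrane protein, from 29.5 and 34.0 to 218 and 111. That count fell to 1 without W replicate 1 or S1 replicate 1. Of 31 heat shock proteins and chaperones 3 rose (9.68%, close to the 7.51% of all genes) and 1 fell: a 16.9 kDa class I heat shock protein (GRMZM2G413897) went from 9.42 and 4.67 to 40.5 and 32.5, while a gene of the hsp20 family (GRMZM2G429396) went from 30.3 and 38.3 to 12.1 and 7.05.

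**Figure D3:**
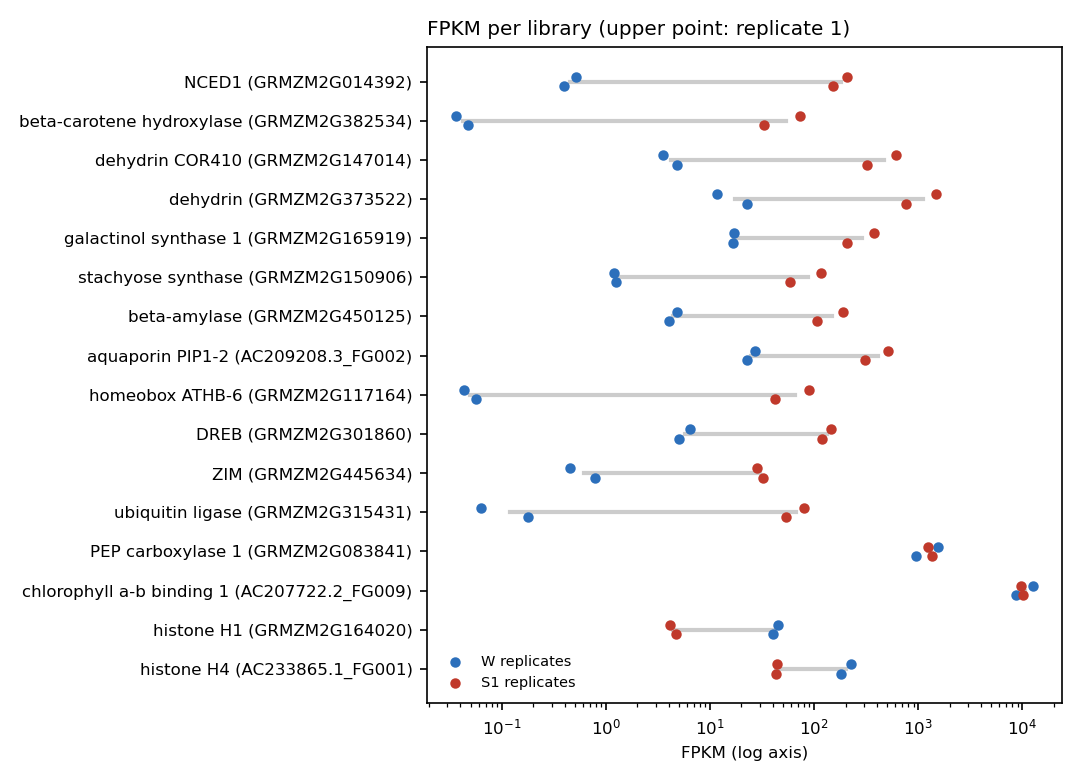
FPKM of 16 named genes in each W (blue) and S1 (red) library on a log axis, with a grey line between the group means. The W and S1 points lie apart for all genes except phosphoenolpyruvate carboxylase 1 and chlorophyll a-b binding protein 1, where they are mixed.

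Both tested genes of the raffinose route rose: galactinol synthase 1 (GRMZM2G165919), which makes the galactose donor, went from 17.1 and 16.6 FPKM to 375 and 205.8 (log2 fold change 3.96 ± 0.37, SE, adjusted p = 5.26e-04), and a gene described as stachyose synthase (GRMZM2G150906), which uses it, from 1.20 and 1.24 to 116 and 58.2. Among 9 starch-breakdown genes only 2 beta-amylases, which release maltose, were called. GRMZM2G450125 went from 4.80 and 4.06 to 189 and 108, a 33.4-fold rise, and GRMZM2G082034 from 1.60 and 1.68 to 32.3 and 39.8. The 4 debranching enzymes had log2 fold changes between 0.02 and 0.31. None of 14 starch-synthesis genes was called by limma (3 had an unadjusted p of at most 0.05), and none of 3 trehalose genes (0 at that p).

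Of 11 genes for sucrose enzymes and invertases 3 rose, all of them invertases, which split sucrose. Neutral/alkaline invertase (GRMZM2G136139) went from 2.74 and 2.56 FPKM to 11.1 and 9.44, and only 1 member of the list stayed called without W replicate 1 or without S1 replicate 2. Both genes of the proline list are proline oxidases, which break proline down. GRMZM2G117956 went from 0.0821 and 0.115 to 2.73 and 2.15. GRMZM2G053720 went from 41.4 and 29.3 to 86.7 and 122, and its call (adjusted p = 0.048) was lost without any 1 of the 4 libraries, with adjusted p between 0.108 and 0.234, and under the replicate block (adjusted p = 0.0587) and other scalings (0.0642 to 0.0784). The study picked a proline synthesis gene on these samples, a homolog of the Arabidopsis enzyme P5CS1. That gene, GRMZM2G028535, went from 1.06 and 0.797 to 6.80 and 6.21 and was not called (adjusted p = 0.144). With the S3 libraries left out of the fit its adjusted p was 2.49e-04.

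Water channels of the plasma and vacuole membranes rose. Aquaporins pass water and small solutes through membranes, and 11 of 22 tested genes rose while 1 fell (median log2 fold change 1.28). Of the PIP type in the plasma membrane 8 of 9 rose, of the TIP type in the vacuole membrane 3 of 5. Of 5 NIP genes none rose and 1 fell, and of 3 SIP genes none was called. The summed PIP level went from 190 and 138 FPKM to 1154 and 807, and the summed SIP level was 27.9 and 24.0 in W and 21.7 and 23.5 in S1. The largest rise was that of PIP1-2 (AC209208.3_FG002), from 27.0 and 22.4 to 513 and 311 (16.7-fold, adjusted p = 2.24e-04), which made it the most abundant aquaporin in S1. PIP2-4 (GRMZM2G154628) went from 0.322 and 0.202 to 13.4 and 3.96. PIP2-1 and TIP2-1, picked after their values were seen, rose 4.597-fold (GRMZM2G014914) and 3.87-fold (GRMZM2G027098).

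The most abundant aquaporin gene of the W leaves, TIP4-1 (GRMZM2G103945), picked after its values were seen, lay at 146 and 160 FPKM in W and 162 and 130 in S1. The 1 aquaporin called lower was NIP2-3 (GRMZM2G081239), from 10.9 and 7.61 to 4.65 and 2.89 (adjusted p = 0.049), and its call was lost without any 1 of the 4 libraries (adjusted p between 0.0765 and 0.268) and under median-of-ratios scaling (0.0602). The number of aquaporins called higher was 7 without W replicate 2 or without S1 replicate 1. PIP genes resemble each other closely, and how the authors' counting divided reads between them is not known here.

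**Figure D4:**
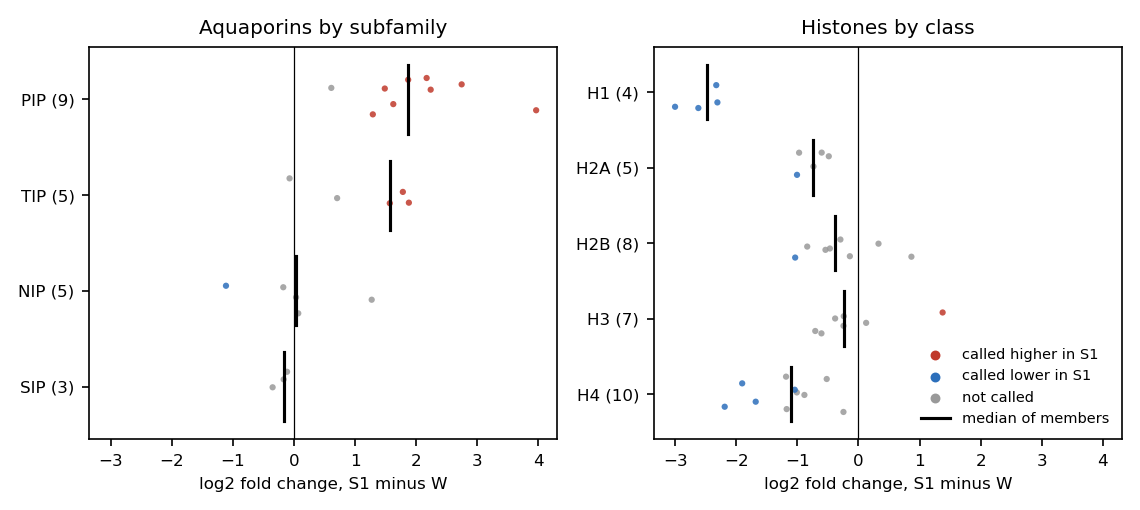
Log2 fold change of S1 over W for the tested aquaporins (left) and histones (right), grouped by subfamily or class, with the number tested in brackets. PIP members range from 0.61 to 3.97 with 8 of 9 called higher, and the 4 H1 members range from -3.004 to -2.31.

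Of 16 amino acid and peptide transporters 3 rose and 1 fell, and of 23 sugar transporters 2 rose (8.70%, close to the 7.51% of all genes) and 1 fell, with list medians of 0.27 and 0.01. Of the sugar transporters 1 was called higher without W replicate 1 or S1 replicate 2, and none lower without W replicate 2, and of the amino acid and peptide transporters 2 were lower without S1 replicate 1. A peptide transporter PTR2 (GRMZM2G176253) went from 7.72 and 8.13 FPKM to 118 and 71.2, and sugar carrier protein C (GRMZM5G801949), which takes up sugars with protons, from 8.70 and 10.6 to 79.8 and 90.8. An abundant amino acid transport protein (GRMZM2G074053) went from 277 and 256 to 742 and 636, with an adjusted p of 0.0067 that became 0.054 without S1 replicate 1. The most abundant sugar transporter, described as MTN3 (GRMZM2G173669), lay at 542 and 537 in W and 715 and 741 in S1 and was not called.

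Jasmonate, a lipid-derived hormone of wounding and defence, has its own repressors in the ZIM (JAZ) proteins, whose genes it also induces. Of 21 tested genes of the jasmonate list 11 rose and none fell, with a median of 1.17. Fewer were called higher in each fit that left out 1 library. Of 6 ZIM genes 5 rose, of 8 lipoxygenases 3, of 5 oxo-phytodienoic acid reductases 1, and both allene oxide enzymes. The ZIM gene GRMZM2G445634 went from 0.448 and 0.785 FPKM to 28.0 and 32.5, a 49.1-fold rise (log2 fold change 4.28 ± 0.56, SE, adjusted p = 0.00243). Allene oxide synthase (GRMZM2G067225), which commits lipid hydroperoxides to jasmonate, went from 2.88 and 3.23 to 29.98 and 22.9. The abundant lipoxygenase lox10 (GRMZM2G015419), at 1036 and 769 in W and 1178 and 1411 in S1, was not called (adjusted p = 0.305).

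Of 32 auxin-response genes 5 rose and 1 fell (2 without W replicate 2 or S1 replicate 2) with a median of -0.14, and the risers were 3 SAUR and 2 Aux/IAA genes. IAA24 (GRMZM2G115357), an Aux/IAA repressor of auxin response, went from 1.42 and 1.88 FPKM to 29.1 and 23.1, and IAA9 (GRMZM2G030465) from 3.60 and 3.22 to 21.1 and 23.5. Of 30 gibberellin, cytokinin and brassinosteroid genes 6 rose and 2 fell, where the 2 became 4 without W replicate 2 and 1 without W replicate 1 or S1 replicate 2. Gibberellin 2-beta-dioxygenase (GRMZM2G051619), which inactivates gibberellin, was at 0.0192 and 0 in W and 7.48 and 6.18 in S1, and a gene described as a GID1-like gibberellin receptor (GRMZM2G173630) rose 7.43-fold, from 12.1 and 10.3 to 93.9 and 72.4. Cytokinin oxidase 3 (GRMZM2G167220), which degrades cytokinin, went from 5.98 and 6.93 to 1.13 and 1.69 and was called lower (adjusted p = 0.00145). None of 8 ethylene synthesis and perception genes was called by limma, although 4 were higher at an unadjusted p of at most 0.05 and their median was 0.62. An ETHYLENE-INSENSITIVE3-like gene (GRMZM2G033570) had 90.3 and 96.7 in W and 179 and 165 in S1 with an adjusted p of 0.0132, just under a 2-fold change.

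Transcription factors rose in several families. Over 8 lists of factor families 103 genes were tested, 33 rose and 1 fell, with a median log2 fold change of 0.51. Over all genes tested 7.51% rose and 1.54% fell, with a median of -0.01. A list of 41 zinc finger proteins, not counted among these, had 4 higher (9.76%) and 2 lower, with a median of 0.18, and its falls were 1 without S1 replicate 1 and 0 without any other 1 of the 4 libraries. AP2/ERF and DREB factors led, with 11 of 18 higher and none lower, a count that stayed at 11 when any 1 library was left out. Of the genes described as dehydration responsive element binding proteins 3 of 3 rose, and of those described as ethylene-responsive transcription factor 4, a repressor type, 4 of 4. The DREB gene GRMZM2G301860 went from 6.38 and 4.99 FPKM to 147 and 119 (log2 fold change 4.32 ± 0.19, SE, adjusted p = 2.98e-05). Ethylene-responsive transcription factor 4 (GRMZM2G089995) went from 0.717 and 1.22 to 27.2 and 28.4.

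Of 15 homeobox genes 2 rose (13.3%, against 7.51% of all genes). The homeobox-leucine zipper gene ATHB-6 (GRMZM2G117164), named after an Arabidopsis factor of the ABA response, went from 0.0432 and 0.0568 FPKM to 88.7 and 42.4. Its log2 fold change was 5.89 ± 0.44 (SE). Of 6 heat stress factors 3 rose (50%), among them heat shock factor protein 1 (GRMZM2G105348), from 0.273 and 0.0869 to 29.2 and 17.8. Heat shock factor protein 3 (GRMZM2G118047), also among them, went from 0.460 and 0.474 to 19.3 and 7.001. The CONSTANS-like gene CO8 (GRMZM2G092363), of a family known for daylength responses, went from 0.993 and 0.566 to 61.3 and 62.2. Another gene described as CONSTANS-like, among the 2 falling zinc finger genes above, went from 48.4 and 48.7 to 25.7 and 20.2. Of 13 NAC factors 3 rose (23.1%), led by GRMZM2G430849, from 12.2 and 10.5 to 105 and 135. Of 22 MYB factors 2 rose (9.09%) and 1 fell, where the falls were 2 without W replicate 2 and 0 without W replicate 1 or S1 replicate 1. MYB transcription factor TaMYB1 (GRMZM5G803308) went from 0.580 and 0.635 to 9.23 and 8.01. Of 19 WRKY factors, which are known from defence, 6 rose (31.6%) by at most 1.72 log2 units. WRKY7 (GRMZM2G137802) rose 4.20-fold, and 3 WRKY genes were called without W replicate 1 or without S1 replicate 1.

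Calcium enters the cytosol early in osmotic stress and is read by calmodulins, calcium-dependent protein kinases and CIPK kinases. Of 62 tested genes 15 rose and 1 fell (median 0.31). Fewer were called higher in some fits that left out 1 library. Of the calmodulins 6 of 14 rose, of the calcium-dependent protein kinases 5 of 16 and of the CIPK genes 3 of 11. The touch-induced calmodulin-related protein 2 (GRMZM2G097900) went from 0.384 and 0.989 FPKM to 51.0 and 30.4 (log2 fold change 4.61 ± 0.28, SE). CIPK-like protein 1 (GRMZM2G174896) rose 10.4-fold to 237 and 276, from 22.6 and 26.6, while CBL-interacting kinase 15 (GRMZM2G316136) was called lower, from 23.0 and 16.8 to 4.78 and 4.48. The most abundant member, a calmodulin binding protein (GRMZM2G451882), lay at 282 and 292 in W and 374 and 420 in S1 and was not called. Of 39 receptor and wall-associated kinases 2 rose (5.13%, against 7.51% of all genes) and 1 fell, and 13 had both S1 libraries above W and 13 both below, close to the 31.6% and 31.7% of all genes. Without S1 replicate 1 these calls were 1 and 2, without W replicate 2 they were 3 and 0, and without S1 replicate 2 the rises were 1.

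E3 ligases mark chosen proteins for breakdown by the proteasome. Of 70 E3 ligase, F-box and U-box genes 10 rose (14.3%, against 7.51% of all genes) and 2 fell (2.86%, against 1.54%), with a median of 0.06. Fewer rises and fewer falls were called in some fits that left out 1 library. A ubiquitin-protein ligase (GRMZM2G315431) went from 0.0636 and 0.178 FPKM to 79.7 and 53.6 (log2 fold change 5.89 ± 0.27, SE, adjusted p = 3.21e-05). RING-H2 finger protein ATL2K (GRMZM2G428179) went from 4.89 and 3.60 to 101 and 82.4, and the most abundant ligase, a RING-H2 finger protein (GRMZM2G005840), from 40.3 and 17.8 to 283 and 275. Of 43 proteasome and ubiquitin-conjugation genes 2 rose (4.65%), and of 65 proteases 2 rose (3.08%) and 2 fell, shares below that of all genes. The rises of the first list were 1 without W replicate 1 or either S1 replicate, and the falls of the second were 1 without W replicate 2 or S1 replicate 1 and 0 without W replicate 1 or S1 replicate 2.

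Of 6 expansins and xyloglucan enzymes, which loosen the wall, 3 rose, a count that held when any 1 library was left out. Xyloglucan endotransglycosylase homolog1 (GRMZM2G026980) went from 41.0 and 46.8 FPKM to 171 and 336, and expansin-like 3 (GRMZM2G095968) from 13.6 and 9.80 to 122 and 59.2. Of 37 cellulose synthases and wall glycosidases 8 rose and 1 fell. The fall was lost without either W replicate or S1 replicate 2 and 2 fell without S1 replicate 1. The 8 became 3 without W replicate 1 or without S1 replicate 1 and 4 without W replicate 2. Of 11 phenylpropanoid and lignin genes 4 rose, and 2 did so without W replicate 1 or without S1 replicate 1. Caffeoyl-CoA O-methyltransferase 1 (GRMZM2G127948), an enzyme of lignin precursors, went from 3.32 and 6.09 to 51.1 and 31.9. None of 3 wax and cuticle genes was called by limma (1 had an unadjusted p of at most 0.05).

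None of 13 glutathione S-transferases was called by limma (3 had an unadjusted p of at most 0.05). Of 21 peroxidases, catalases and superoxide dismutases 1 rose, and none did without W replicate 1 or S1 replicate 1. Of 34 thioredoxins and glutaredoxins 2 rose (5.88%). A glutaredoxin (GRMZM2G311898), a small thiol oxidoreductase, went from 1.23 and 1.04 FPKM to 37.7 and 33.7 (31.5-fold). Catalase isozyme 3 (GRMZM2G079348), which removes hydrogen peroxide and was the most abundant of its list, lay at 865 and 798 in W and 563 and 622 in S1 and was not called (adjusted p = 0.216). Of 9 metallothioneins, which bind metals, 2 rose, but 1 without S1 replicate 1 or either W replicate. The zinc type (GRMZM2G402564) went from 5.53 and 3.94 to 50.4 and 55.4, while the abundant MT-1 (GRMZM2G164229) lay at 3943 and 3148 in W and 2939 and 3448 in S1. Of 12 genes listed as chitinases and PR proteins 2 rose, and fewer did so in each fit that left out 1 library. Of these 2, 1 is described as a pathogenesis-related transcriptional activator and is not a PR protein by that description. Of 13 protease inhibitors 3 rose. Endochitinase PR4 (GRMZM2G129189) went from 1.98 and 7.71 to 62.8 and 77.1, and the wound-induced proteinase inhibitor WIP1 (GRMZM2G011523) from 0.338 and 0.0606 to 12.0 and 9.29.

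Of 39 photosystem and chlorophyll-binding genes none rose and 2 fell, with a median of -0.26, and 1 was called lower without either S1 replicate and none without W replicate 1. At an unadjusted p of at most 0.05, 5 were lower and 0 higher. The 12 chlorophyll a-b binding genes had a median of -0.17, the 11 photosystem I genes -0.25 and the 14 photosystem II genes -0.48. Chlorophyll a-b binding protein 1 (AC207722.2_FG009), the most abundant of the list, lay at 12689 and 8604 FPKM in W and 9608 and 10098 in S1. Photosystem II 11 kD protein (GRMZM2G056424) was called lower, from 198 and 145 to 74.1 and 82.3 (adjusted p = 0.010), and its adjusted p was 0.0775 without W replicate 1 and 0.0669 without S1 replicate 1. Plastocyanin (GRMZM2G071450), which carries electrons to photosystem I, lay at 5227 and 3417 in W and 2861 and 2773 in S1 and was not called. It belongs to a list of 20 tested genes for electron transport and the plastid ATP synthase, with a median of -0.25. Of these 2 rose (10%, against 7.51% of all genes), both described as ferredoxins, and none fell. None of 18 Calvin cycle genes was called by limma, and 4 had an unadjusted p of at most 0.05.

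A single C4 gene was called lower. GRMZM2G306345, described as a truncated cytosolic orthophosphate dikinase, an enzyme type that makes phosphoenolpyruvate, was at 11253 and 8819 FPKM in W, was listed at 0 in both S1 libraries, and was at 5635 and 6695 in the S3 libraries. It made up 1.67% and 1.55% of the summed FPKM of the W libraries. A listed 0 in FPKM can be a failed estimate, and whether it is one here was not tested, so no fold change is given for it. Without it, 2 of 17 C4 genes rose and none fell, the list's median was 0.31, and its summed level was 5691 and 4191 in W and 5079 and 5822 in S1. Both risers were scarce. Phosphoenolpyruvate carboxylase kinase 3 (GRMZM2G096753), which switches the carboxylase on, went from 0.154 and 0.226 to 4.89 and 2.70, and a carbonic anhydrase (GRMZM2G087259) from 0.481 and 0.597 to 4.05 and 4.65. In all, 18 genes called higher were listed at 0 in both W libraries and 6 called lower were listed at 0 in both S1 libraries.

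Histone genes, which package newly made DNA and are used mostly in dividing cells, had the lowest median of the 71 lists. Of 34 tested genes 10 were called lower and 1 higher, with a median log2 fold change of -0.72, against 1.54% lower and a median of -0.01 over all genes. The linker histone H1 fell at 4 of 4 genes: GRMZM2G164020 went from 44.5 and 40.2 FPKM to 4.15 and 4.66, a level 9.61-fold lower (log2 fold change -3.004 ± 0.29, SE, adjusted p = 6.49e-04). The histone H1-like gene GRMZM2G401308 went from 58.9 and 52.2 to 9.15 and 7.27, and GRMZM2G003002 and GRMZM2G121221 had log2 fold changes of -2.33 and -2.31. The summed H1 level was 151 and 134 in W and 21.2 and 18.6 in S1, with no overlap.

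The core histones fell in part. Of 10 H4 genes 4 were called lower and 9 had both S1 libraries below both W libraries, compared with 31.7% of all genes. The most abundant H4 gene (AC233865.1_FG001) went from 225 and 181 FPKM to 43.9 and 42.8, and GRMZM2G332838 from 59.9 and 44.2 to 12.5 and 13.6. Of 5 H2A genes 1 was called lower, of 8 H2B genes 1, and of 7 H3 genes none. The 1 histone called higher was an H3.2 gene (GRMZM2G130079), from 5.21 and 3.52 to 16.2 and 10.0 (adjusted p = 0.0496), whose call was lost without any 1 of the 4 libraries (adjusted p between 0.0922 and 0.23), under the replicate block (0.0837) and under other scalings (0.0555 to 0.0649). Of the 10 falling histone genes 6 were called without W replicate 1. Histone gene copies are nearly identical, so levels of single copies depend on how reads were shared between them. The summed level of all listed histones was 989 and 769 in W and 409 and 391 in S1.

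Other gene lists of dividing cells had medians near 0. Of 27 cell cycle and replication genes 2 rose (7.41%) and 2 fell, with a median of -0.05, where the falls were 1 without W replicate 1 and 0 without W replicate 2 or S1 replicate 2, and the rises 1 without S1 replicate 1 or either W replicate. Of 28 tubulins and actins 1 rose (2 without W replicate 1 or S1 replicate 2), with a median of 0.13. The largest rise in the cell cycle list was a gene described as a cell division AAA ATPase (GRMZM2G310947), from 0.963 and 3.16 FPKM to 25.7 and 16.3. The share of dividing tissue in the leaves taken was not measured.

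None of 165 cytosolic ribosomal protein genes was called by limma, and at an unadjusted p of at most 0.05 there were 28 lower and 1 higher. None of 44 translation factors and tRNA synthetases was called (0 at that p), and none of 28 respiration genes (2 lower and 1 higher at that p). The median of the ribosomal genes was -0.16, and 108 of 165 had both S1 libraries below both W libraries (31.7% of all genes did). The most abundant, ribosomal protein L19 (GRMZM2G171444), lay at 524 and 405 FPKM in W and 396 and 434 in S1. Of 31 organellar ribosomal protein genes, which serve plastids and mitochondria, none had both S1 libraries above W and 19 had both below. 1 was called lower, plastid-specific 30S ribosomal protein 3 (GRMZM2G032721), from 4.64 and 3.56 to 1.13 and 1.52 (adjusted p = 0.0073, and 0.063 without W replicate 1 and 0.052 without S1 replicate 1). The median of all genes moved by -0.11 log2 units under upper-quartile or quantile scaling, and the ribosomal median was then -0.28, so that it lay about as far below all genes as before. None of 5 circadian clock genes, listed as markers of the time of day, was called by limma (2 were higher at that p). Their median was 0.58, and 4 of the 5 had a higher mean in S1. In 3 of them both S1 libraries lay above both W libraries, as in 31.6% of all genes. The 1 with a lower mean, Gigantea 1A (GRMZM2G107101), lay at 430 and 552 in W and 403 and 422 in S1.

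Some of the largest changes belong to genes outside these lists. Farnesylated protein 1 (GRMZM2G085086) went from 0.966 and 1.11 FPKM to 205 and 113 (log2 fold change 6.24 ± 0.28, SE, adjusted p = 2.98e-05). A gene described as cylicin-1 (GRMZM5G822237) went from 8.04 and 12.7 to 795 and 459, a 60.6-fold rise. Of the 10 largest falls with a named function and at least 10 FPKM in W 6 were histones, and AIR12 (GRMZM2G057467) went from 10.96 and 11.3 to 2.14 and 0.0434 (adjusted p = 0.031), a call that was lost without either W replicate or without S1 replicate 2 (adjusted p between 0.102 and 0.178). Of the genes called higher 1109 have no description or one without a function, and of those called lower 257, so most of the called genes are in no description-based list.

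The 2 S1 replicates differed in the size of some rises. Over all genes tested, replicate 1 of S1 lay above replicate 2 for 42.4%, and among the 1511 genes that rose for 57.4%, with a median ratio of 1.07. Among the 181 genes that rose by more than 3 log2 units it was 68.5%. For the dehydrins that rose the median ratio was 1.95 and replicate 1 was higher for 3 of 3, for heat stress factors it was 1.84 and 3 of 3, and for aquaporins 1.55 and 9 of 11. It was 1.13 for AP2/ERF factors, 1.08 for jasmonate genes and 0.90 for NAC factors. With 1 pair of S1 libraries this order has no replicate of its own, and the water loss of each sample was not in the files.

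**Figure D5:**
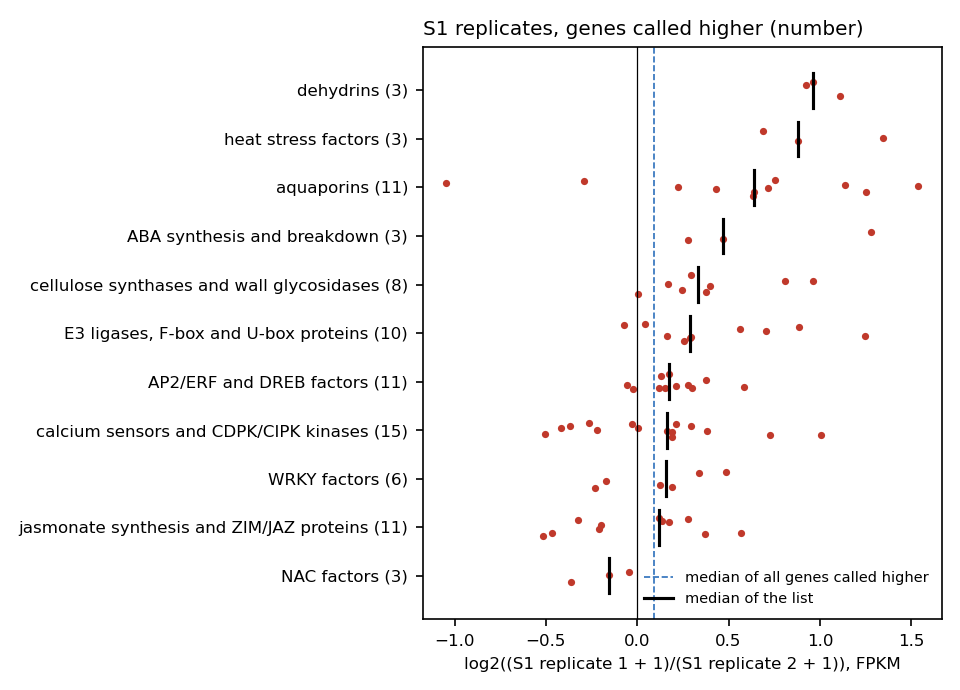
Ratio of S1 replicate 1 to S1 replicate 2, as log2 of (FPKM + 1), for the genes called higher in 11 function lists, with black bars at list medians and a dashed line at the median of all genes called higher. Dehydrins lie near 1 log2 unit, aquaporins spread from below -1 to above 1.5, and NAC factors lie at or below 0.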

How the data were processed

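The authors made the FPKM values, one deposited table per library, with Cuffdiff from reads aligned with TopHat to the B73 RefGen_v2 genome; the submitters' processing notes list CASAVA 1.8.2 and TopHat 0.12.8. Replicates 1 and 2 had different read lengths, and the library kit does not mark strand, so overlapping antisense genes cannot be told apart. The W and S1 libraries came from one Cuffdiff run and the S3 libraries from another. A deposited table of all genes holds condition values, descriptions and the authors' log2 fold changes and q-values; the comparison columns were not used. FPKM keep no read counts per gene, and no counting limits are given. The study reports read totals for each condition, which were not used here.

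Genes with at least 1 FPKM in 2 of the 6 libraries were tested on log2(FPKM + 1) with limma 3.58.1 (R 4.3.3; lmFit, eBayes with trend) in one fit of all 6 libraries, with S3 values scaled by 0.993 to bring the S3 run to the level of the S1 libraries. Calls needed a Benjamini-Hochberg adjusted p of at most 0.05 over all genes and an absolute log2 fold change of at least 1. The steps were tested on simulated data. The labels call the replicates biological and say no more of their origin, so p-values measure the spread between these samples.

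Lists were made by words in the deposited descriptions, 19801 genes having none. Words were excluded after reading the matched descriptions but not values, while subfamilies were split after values were seen. The members and lists were chosen with earlier results of these data known. Genes were named by a rule: in each list up to 2 called members per direction with the largest change and no overlap, its most abundant member, the 10 largest rises and falls with a named function and at least 10 FPKM in the higher group, and genes the study picked. The rule gives 209 genes, of which the text names a part chosen with their values known; exceptions to it are said to have been picked after their values were seen. Alternatives were 3 scalings, pseudocounts of 0.1 and 2, 2 filters, a fit of W and S1 only, the replicate number as a block, other thresholds and leaving out each library. Tables and plots used Python 3.11.15, numpy 2.4.6, pandas 2.3.3 and matplotlib 3.10.9.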

Additional observations from a re-analysis of the deposited data

How the results depend on the processing

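Of the 96 genes named 79 were called; none of these changed direction under any alternative, and 72 kept their call at every setting. The number of genes called was 3214 with no fold threshold, of which 2272 were higher and 942 lower. Falls were the less stable side: 493 at a pseudocount of 0.1, 184 at a pseudocount of 2, 189 with no filter on low values and 155 at an adjusted p of 0.01, against 309 in the report. Leaving out 1 library gave 1242 to 1649 called genes, 1098 to 1326 of them higher and 144 to 323 lower. The share of higher genes among all called was 83% in the report, 74.8% under upper-quartile and 74.6% under quantile scaling, which moved the median of all genes by -0.11. With the replicate number as a block 1784 genes were called, 1473 higher and 311 lower. The deviations of same-numbered libraries from their group means correlated at 0.14 between W and S1, and at -0.09 and 0.06 when S3 was set against W and against S1, so the numbers were not taken to pair the samples. Of 71 lists 36 had a median that stayed within the spread between replicates at every setting, and how the other medians moved was not examined further. The planned look at promoter motifs and at maize-only descriptions was not run. No promoter sequences were used here. The descriptions do not say which of them were inferred from another species, though some, such as ATHB-6, hold names from other species. Without read counts per gene, precision at low FPKM was not set from depth.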
